A study of Mus musculus with 8 samples.

Results

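Imprinted genes, which in the mouse are read mainly from the copy inherited from 1 parent, were followed through cardiomyocytes of newborn hearts. A list of 38 genes known to be imprinted was matched by symbol to the deposited table, and all 38 were found among its 48440 entries. A count in at least 1 library was present for 37 of them, and 30 passed the filter on low counts and were tested. The cells came from purified heart preparations of C57BL6/J pups at postnatal day 2. Every one of 4 litters (6 to 8 pups on average) gave a male and a female library, so that there were 8 libraries, 4 of each sex and 2 of each litter. No treatment or genetic change is named in the labels, and every group shares strain and age. The strain is inbred, so the 2 parental copies carry the same sequence, and the counts give the sum of both. A change in level could therefore not be assigned to 1 copy.

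Imprinted genes lie in clusters under control regions that carry DNA methylation on 1 parental copy only. Many act on growth before and after birth: genes read from the father's copy, such as Igf2, often promote growth, and genes read from the mother's copy, such as Igf2r, Grb10 and Cdkn1c, often restrain it. In many tissues the fetal levels of these genes fall together after birth, and Plagl1, a zinc finger transcription factor that is itself imprinted, is known as a regulator of others of them. Several members are noncoding RNAs, and some host microRNAs.

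Upstream sequence and microRNAs are shown for some of the genes on which the litter comparisons below turn. In mouse, ZFP57 keeps methylation at imprinted control regions by binding the hexamer TGCCGC where it is methylated. On the opposite strand the same hexamer reads GCGGCA. The set of RefSeq start windows used here covered 32 members, with 50 windows of the 250 bases before a start. It held no window for H19, Cdkn1c, Peg10, Rtl1, Sgce and Impact. The hexamer was found on either strand in 6 of the 50 windows (12%), which belong to 5 genes, against 8.7% of all 32851 such windows. A match is a description of the letters, not of a bound site. RefSeq gave 3 start windows for Mest, of which 2 overlap almost wholly and hold 2 matches each, and the third, upstream, holds 0 matches and 7 CpG pairs. The Mest window shown, at chr6:30737800-30738049 on the plus strand of GRCm38.p6, held its 2 matches, in capitals, and 14 CpG pairs. The Igf2r window, at chr17:12769707-12769956 on the minus strand, held 27 CpG pairs and no match. The third sequence lies between the divergent starts of Peg3 and Usp29, at chr7:6730432-6730577 on the plus strand, and holds 5 CpG pairs in 146 bases and no match. All 3 windows shown lie outside annotated exons.
Mest: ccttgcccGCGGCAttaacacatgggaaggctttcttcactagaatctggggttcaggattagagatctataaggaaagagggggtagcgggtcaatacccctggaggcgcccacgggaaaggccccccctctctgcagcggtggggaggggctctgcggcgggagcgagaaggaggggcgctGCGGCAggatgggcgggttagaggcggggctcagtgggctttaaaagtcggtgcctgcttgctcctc
Igf2r: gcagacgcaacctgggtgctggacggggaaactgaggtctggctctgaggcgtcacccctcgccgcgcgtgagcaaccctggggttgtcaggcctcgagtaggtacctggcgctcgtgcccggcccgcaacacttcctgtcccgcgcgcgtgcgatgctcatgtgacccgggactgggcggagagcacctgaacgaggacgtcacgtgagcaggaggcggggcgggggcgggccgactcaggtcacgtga
Peg3 and Usp29 between starts: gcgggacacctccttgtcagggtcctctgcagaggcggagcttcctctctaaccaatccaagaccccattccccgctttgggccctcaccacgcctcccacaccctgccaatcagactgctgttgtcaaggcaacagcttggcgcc

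The microRNAs carried by H19, Igf2 and Mest are shown with the seed, bases 2 to 8, in capitals. No 2 of these 4 share a seed. The miR-675 pair lies in an exon of H19, miR-483-3p in an intron of Igf2 and miR-335-5p in an intron of Mest, each on the strand of its host. Their own entries held 0, 13 and 1 counts over all 8 libraries, so the values below are of the host transcripts and not of the mature microRNAs. Of the members, 8 host annotated microRNAs in all, and Mirg alone hosts 14 microRNA genes.
mmu-miR-675-5p: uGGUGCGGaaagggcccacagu
mmu-miR-675-3p: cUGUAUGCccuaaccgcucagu
mmu-miR-483-3p: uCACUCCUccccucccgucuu
mmu-miR-335-5p: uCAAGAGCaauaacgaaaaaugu

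Library totals ran from 14226342 to 24910243 counts. Xist had 15 to 124 counts in males and 15865 to 31331 in females, and Ddx3y 1121 to 1694 and 1 to 3, in keeping with the labelled sexes. All 8 cardiomyocyte markers passed the filter, with summed levels of 54600 to 68190 CPM (counts put on a common scale for the size and make-up of each library). Markers of other cells were present at lower summed levels, 32.4 to 243 CPM for fibroblasts, 16 to 148 CPM for endothelial cells and 898 to 1517 CPM for mural cells. The mural list includes Acta2, Kcnj8 and Abcc9, and whether cardiomyocytes contributed to its sum was not tested. In the macrophage list Adgre1, C1qa and C1qb had 0 counts in at least 1 library. In such bulk libraries, fewer cells of a type and less RNA per cell cannot be told apart.

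Levels were compared between genes as RPKM, CPM per kilobase of annotated exon, with mean ± SD over the 8 libraries. A few growth genes were very abundant. H19, a maternally read noncoding RNA, came first at 127 ± 34.9 RPKM, followed by Igf2, the fetal growth factor, at 120 ± 14.2 RPKM. Gnas, which encodes the stimulatory G protein subunit, had 105 ± 7.35 RPKM, Grb10, an adaptor that dampens insulin and IGF receptors, 92.9 ± 11.1 RPKM, and Igf2r, the receptor that clears IGF2, 91.2 ± 15.9 RPKM. These neighbours in the order overlapped in their spread. The order also depends on the length used, all annotated exon bases of a gene, 2460 for H19 and 11186 for Gnas. In CPM, Gnas had a mean of 1169 and H19 of 312. Ddc, the decarboxylase of the dopamine pathway whose imprinted transcript is known from heart, followed at 60.0 ± 11.2 RPKM, then Plagl1 at 39.2 ± 10.2 RPKM, the amino acid transporter gene Slc38a4 at 31.2 ± 3.11 RPKM and Mest, which encodes a membrane hydrolase, at 26.6 ± 10.4 RPKM. The first 5 genes held 71.8 to 75.6% of the summed CPM of the 38 members, and this sum ran from 4465 to 5903 CPM, lowest in the male of litter 1 and highest in the male of litter 3.

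The members of the chromosome 12 cluster were much lower. Meg3, its maternally read noncoding RNA, had 1.80 ± 0.199 RPKM, Rian, the next RNA downstream, 0.862 ± 0.149 RPKM, Rtl1, a retrotransposon-derived gene, 0.342 ± 0.105 RPKM and Dlk1, a Notch-like surface protein of fetal tissue, 0.140 ± 0.0629 RPKM. Airn, the long RNA that silences the paternal Igf2r copy, had 16.4 ± 1.98 RPKM, but its annotated exons leave out most of the known unspliced RNA, and Kcnq1ot1, annotated over its whole span, had 0.0523 ± 0.0126 RPKM. The levels of these long RNAs per length are therefore not on the same footing as those of spliced genes. Between libraries, Gnas had the smallest coefficient of variation in CPM among tested members (7.03%), while Peg10 (54.2%), Dlk1 (44.8%), Mirg (40.5%) and Mest (39.2%) had the largest. Of these 4, Mest alone was abundant, with 1488 to 3508 counts per library, against 7 to 63 for Peg10, 6 to 30 for Dlk1 and 5 to 33 for Mirg.

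**Figure D1:**
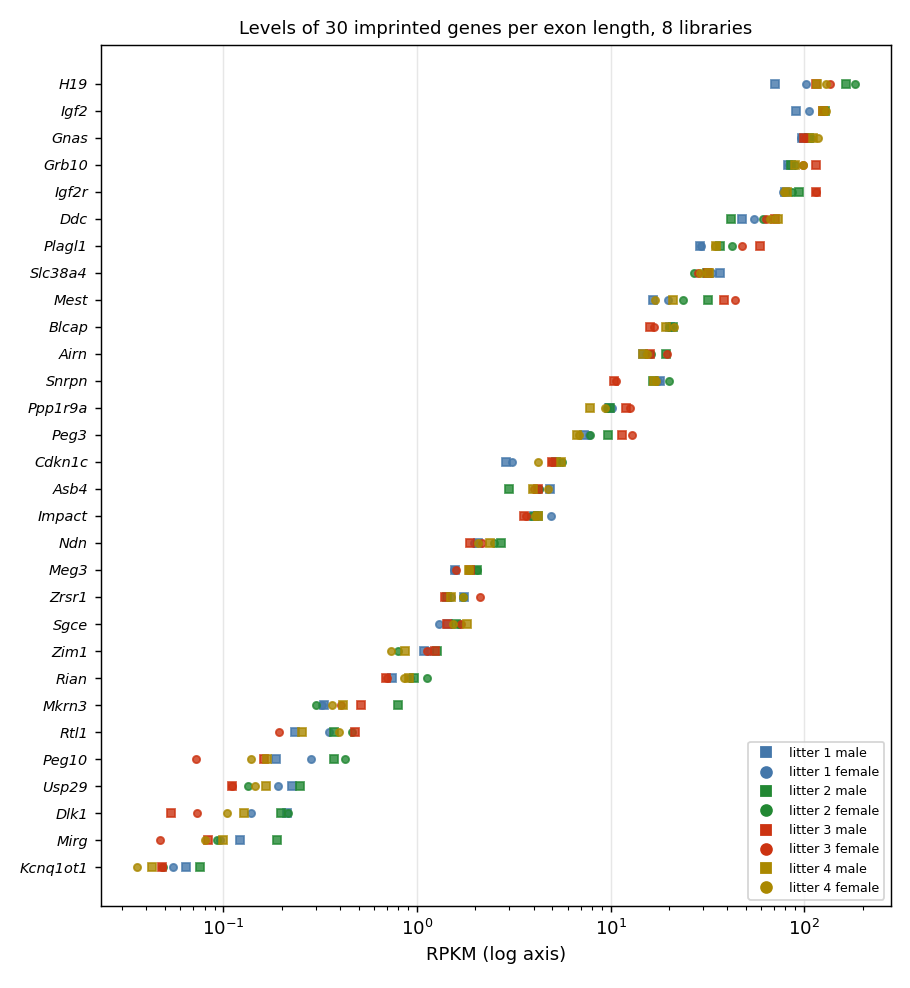
RPKM (log axis) of the 30 tested imprinted genes, 1 point per library, coloured by litter and shaped by sex, ordered by the mean. H19, Igf2, Gnas, Grb10 and Igf2r lie at the top, near 91.2 to 127 RPKM on average, and for Mest, Snrpn and Dlk1 the 2 points of litter 3 stand apart from the other 6.

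Litters were compared first. In edgeR's quasi-likelihood F test of the 4 litters together, with sex in the model and Benjamini-Hochberg adjustment over all genes, 17 of the 30 tested members had an adjusted p-value under 0.05, against 32.1% of 13771 tested genes. The median range over litters was 0.54 on the log2 scale for the members and 0.37 for all tested genes; the list itself was not tested. Members read from the father's copy were called in 8 of 17 cases and those read from the mother's in 6 of 9, and 3 of the 4 whose imprinting depends on tissue or transcript were called as well. Directions differed from litter to litter. H19, Mest, Igf2r, Plagl1, Peg3 and Snrpn had the smallest adjusted p-values, 1.11e-04, 3.0e-04, 3.25e-04, 3.72e-04, 4.31e-04 and 4.38e-04. The labels name no batch, so litter cannot be told apart from dam, day or handling of the preparation. Without both libraries of litter 3, 8 members remained called, H19, Igf2, Cdkn1c, Plagl1, Mest, Meg3, Peg10 and Ddc, while 1898 of 13899 tested genes were, and without the male of litter 1 there were 9, while 2992 of 13925 were.

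**Figure D2:**
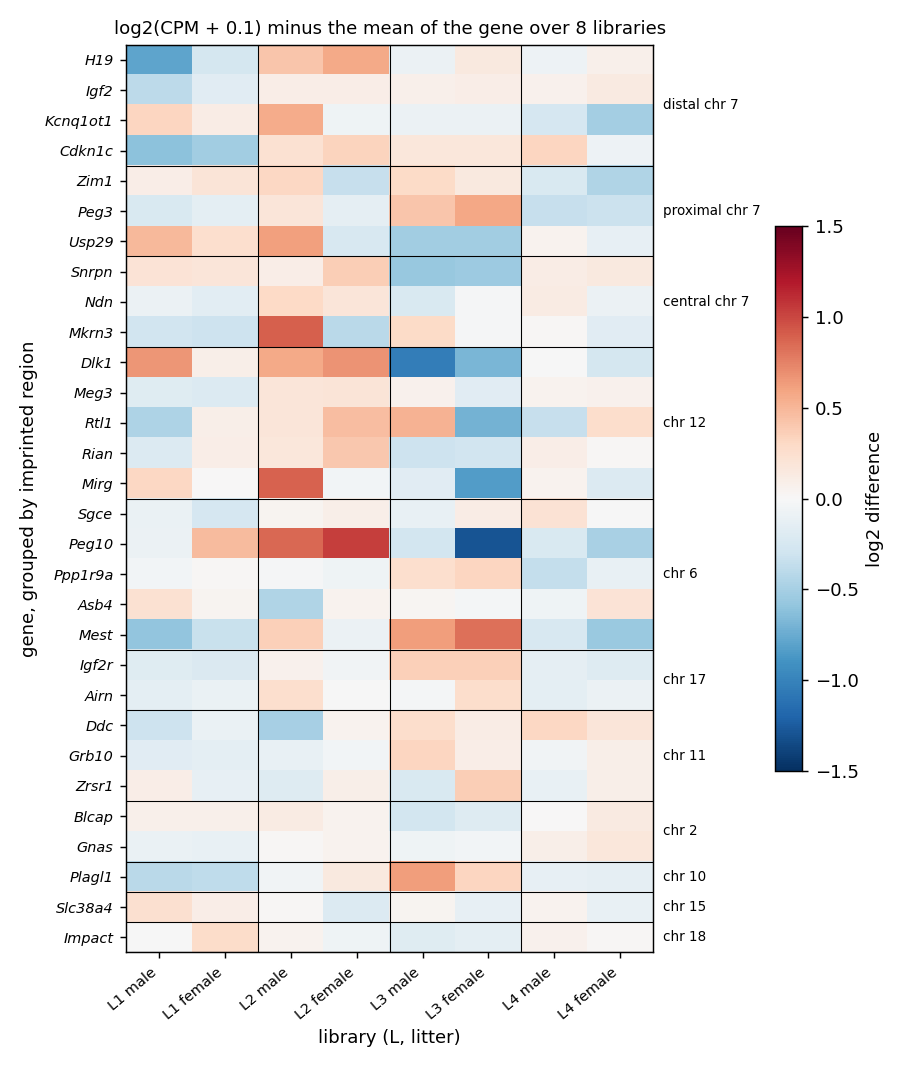
Each gene's log2(CPM + 0.1) minus its mean over the 8 libraries (colour, limits at 1.5), with genes grouped by imprinted region and libraries by litter. Litter 1 is low for H19, Igf2, Cdkn1c and Plagl1, and litter 3 is high for Mest, Peg3, Plagl1 and Igf2r and low for Snrpn, Dlk1 and Usp29.

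Litter 1 had low levels of H19, Igf2, the cell cycle inhibitor gene Cdkn1c and Plagl1. H19 (chr7:142575529-142578143, minus strand, GENCODE M21 on GRCm38, as for all genes here) had 174, 403, 284 and 285 CPM in the males of litters 1 to 4 and 251, 448, 333 and 317 CPM in the females. Both libraries of litter 1 lay below all others and both of litter 2 above them. Against the mean of the other 3 litters its log2 fold change in litter 1 was -0.70 (SE 0.08, edgeR adjusted p = 1.88e-04). Igf2 (chr7:142650766-142666816, minus strand) had 516, 729, 717 and 713 CPM in males and 603, 728, 727 and 744 CPM in females. Litters 2 to 4 lay within 713 to 744 CPM, and litter 1 was below them by -0.38 on the log2 scale (SE 0.06, adjusted p = 0.00222). Of the Igf2 exon bases, 62.8% also belong to Gm49394 on the same strand, a gene with no entry of its own in the table, so the split of such reads is uncertain. Cdkn1c had 5.90, 10.6, 10.2 and 11.3 CPM in males and 6.29, 11.5, 10.2 and 8.61 CPM in females, with litter 1 again below every other library (log2 fold change -0.76, SE 0.13, adjusted p = 0.00337). Exons of the opposite-strand Gm44732 cover 30.7% of Cdkn1c, but its entry held 0 to 5 counts per library. Plagl1 had 225, 289, 461 and 273 CPM in males and 228, 331, 374 and 272 CPM in females, so litter 1 was lowest and litter 3 highest, with log2 fold changes of -0.53 (SE 0.08, adjusted p = 0.00177) and 0.64 (SE 0.08, 1.23e-04).

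In all, 7 members were lower in litter 1 and 2 were higher, where 5.41% of tested genes were lower and 7.86% higher. The other 3 that were lower were Mest (-0.61), Igf2r (-0.26) and Meg3 (-0.26). Meg3 had 28.6, 36.8, 33.9 and 33.5 CPM in males and 28.1, 36.9, 28.8 and 33.7 CPM in females, an adjusted p of 0.0388. Its call in litter 1 was lost in 7 of 15 alternatives and that among the litters together in 5 of 15, DESeq2 among them both times (0.117 and 0.111). Snrpn (0.26) and Slc38a4 (0.23) were the 2 that were higher. Slc38a4 had 156, 134, 136 and 137 CPM in males and 142, 115, 121 and 123 CPM in females, with litter 1 above all others by a small margin (SE 0.06, adjusted p = 0.0187). The median log2 fold change in litter 1 was -0.16 over the 30 members and -0.00 over all tested genes. Snrpn in litter 1 lost its call in 9 of 15 alternatives, DESeq2 among them (0.101). Without both libraries of litter 3 it changed by 0.01 (adjusted p = 0.944), Igf2r by -0.12 (0.263) and Mest by -0.32 (0.113). Without the male of litter 1, H19 alone stayed called, while calls over all genes went from 1827 to 359. The log2 fold changes of Igf2, Cdkn1c, Plagl1 and Mest were then -0.28, -0.67, -0.50 and -0.40, with adjusted p-values of 0.143, 0.1, 0.0556 and 0.191. Those of Igf2r, Meg3, Slc38a4 and Snrpn were -0.25, -0.24, 0.25 and 0.18, with 0.191, 0.33, 0.178 and 0.452. Without the female of litter 1, 5 members stayed called, H19, Igf2, Cdkn1c, Plagl1 and Mest, with 411 calls over all genes.

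Markers of dividing cells stood apart in the same litters. All 6 proliferation markers were higher in litter 1, with a summed level of 258 to 312 CPM, against 173 to 182 CPM in litter 2, 50.8 to 75.1 CPM in litter 3, where all 6 were lower, and 132 to 145 CPM in litter 4. In litter 1 the summed fibroblast markers were 111 to 166 CPM (3 of 8 higher) and the endothelial ones 16 to 61.9 CPM (0 of 8 called). Of 8 cardiomyocyte markers 3 were higher, and of 8 mural markers 1 was higher and 1 lower. Their part in the values of the imprinted genes was not tested.

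**Figure D3:**
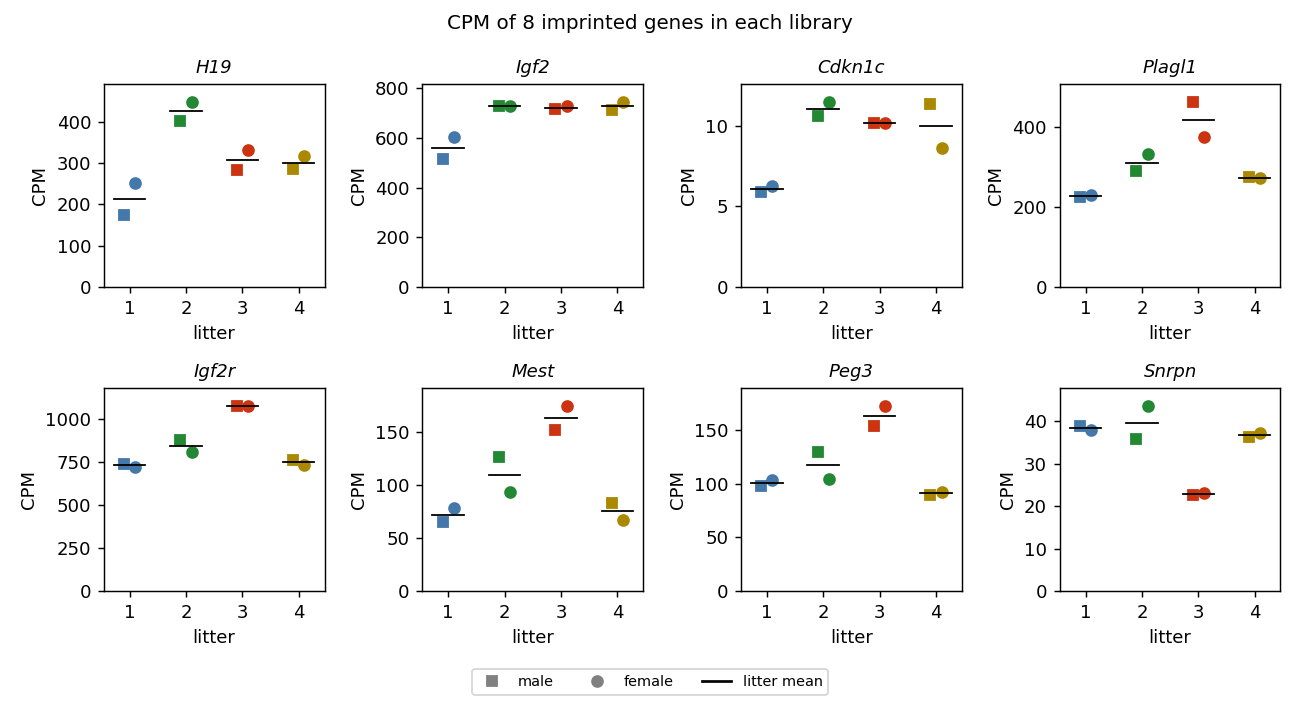
CPM of 8 imprinted genes in each library (squares, males; circles, females; bars, mean of the 2 libraries of a litter), each axis from 0. Litter 1 is lowest for H19, Igf2, Cdkn1c and Plagl1, and litter 3 is highest for Plagl1, Igf2r, Mest and Peg3 and lowest for Snrpn.

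In litter 3, Mest, Peg3, Plagl1, Igf2r, Ppp1r9a and Grb10 were higher and Snrpn, Blcap, Rian, Dlk1 and Usp29 lower. These 6 and 5 of 30 members stand near the background, since 13.6% of tested genes were higher and 14.8% lower, and the median was 0.02. Mest (chr6:30723547-30748465, plus strand) had 65.2, 126, 152 and 83.1 CPM in males and 78.3, 93.0, 174 and 67.0 CPM in females. Both libraries of litter 3 lay above all others, higher by 0.96 on the log2 scale (SE 0.11, edgeR adjusted p = 9.4e-05). Opposite-strand exons of Copg2 cover 23.1% of Mest, and whether reads were counted by strand is not given in the sources used here. Copg2 itself had 64.6 to 87.8 CPM and a log2 fold change of 0.19 in litter 3 (adjusted p = 0.0512). Peg3 (chr7:6703892-6730431, minus strand), a zinc finger gene read from the father's copy, had 97.4, 129, 153 and 89.8 CPM in males and 103, 104, 172 and 91.8 CPM in females, again with litter 3 on top (0.67, SE 0.08, adjusted p = 1.09e-04). Igf2r (chr17:12682406-12769664, minus strand) had 741, 879, 1075 and 762 CPM in males and 722, 807, 1074 and 735 CPM in females. Its 2 libraries of litter 3 were nearly equal and above the rest (0.48, SE 0.05, adjusted p = 6.91e-05).

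Grb10 had 748, 776, 1050 and 812 CPM in males and 761, 815, 901 and 893 CPM in females. The female of litter 3 exceeded that of litter 4 only narrowly, and the call (0.29, SE 0.07, adjusted p = 0.00878) was lost without the male of litter 3, where the log2 fold change was 0.13 (0.282). Ppp1r9a, which encodes the actin-binding protein neurabin, had 143, 145, 174 and 114 CPM in males and 148, 139, 182 and 136 CPM in females, with litter 3 highest (0.38, SE 0.06, adjusted p = 0.00129). Mest, Peg3, Plagl1, Igf2r and Ppp1r9a kept the call in litter 3 under each of the 14 alternatives that could be fitted.

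Among the members lower in litter 3, Snrpn, which encodes a spliceosome protein, was the clearest. Snrpn (chr7:59982495-60140219, minus strand) had 38.8, 35.8, 22.6 and 36.2 CPM in males and 38, 43.5, 23.0 and 37.1 CPM in females. The 2 libraries of litter 3 lay far below the other 6, lower by -0.74 on the log2 scale (SE 0.08, edgeR adjusted p = 6.93e-05), and the call held under all 14 alternatives that could be fitted. Gm38393 and Snurf share 27.3% of the exon bases of Snrpn on its strand; Gm38393 changed by -0.07 in litter 3 (adjusted p = 0.80), and Snurf held 0 counts. Gm38393 was itself called among the litters (0.00599) and was higher in litter 1 by 0.66 (0.0141), where Snrpn was higher too, so the split of reads between them is uncertain there. Blcap, a small membrane protein gene with an imprinted isoform, had 61.8, 63.9, 48.3 and 58.9 CPM in males and 62.1, 60.8, 51.3 and 64.3 CPM in females (-0.32, SE 0.07, adjusted p = 0.0049), and without the male of litter 3 its adjusted p was 0.0773. Rian had 13.5, 17.5, 12.5 and 16.6 CPM in males and 16.7, 20.5, 12.7 and 15.7 CPM in females, lowest in litter 3 (-0.39, SE 0.10, adjusted p = 0.0159) and highest in litter 2.

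The last 2 of this group had few counts. Dlk1 had 1.20, 1.12, 0.30 and 0.73 CPM in males and 0.78, 1.21, 0.41 and 0.59 CPM in females, which in litter 3 were 7 and 6 counts. Its log2 fold change was -1.39 (SE 0.40, edgeR adjusted p = 0.023), and adjusted p-values were 0.0607 when male 1 was left out, 0.303 for male 3 and 0.074 for female 3, and 0.125 with DESeq2. Its call among the litters together was lost in 10 of 14 alternatives. Usp29, a deubiquitinase gene that starts beside Peg3 and is read outward from the same stretch, had 4.09, 4.49, 2.00 and 3.02 CPM in males and 3.46, 2.43, 2.00 and 2.64 CPM in females. It was lower in litter 3 by -0.75 (SE 0.23, adjusted p = 0.0289), with 46 and 29 counts there, and 7 of 14 alternatives lost the call, among them DESeq2 (0.0979). For Rian the call was lost without the male (0.0589) or the female (0.153) of litter 3. Peg3 and Usp29 thus went in opposite directions in litter 3: the ratio of their CPM was 76.8 in its male and 86.1 in its female, and 23.8 to 43.0 in the other 6 libraries. This ratio was computed after the values were seen.

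Cell type markers moved with litter 3 as well. The summed fibroblast markers were 32.4 to 51.8 CPM in litter 3 (6 of 8 lower) and 108 to 243 CPM in the other litters, the mural ones 898 to 921 CPM (5 of 8 lower) against 1338 to 1517 CPM, and the endothelial ones 18 to 19.6 CPM (5 of 8 lower) against 16 to 148 CPM. Cardiomyocyte markers summed to 54600 to 55090 CPM there (3 of 8 lower) and to 57470 to 68190 CPM elsewhere, and 2 of 6 erythroid markers were higher. Whether these shifts take part in the lower Dlk1, Rian, Blcap, Usp29 and Snrpn, or in the members that were higher, was not tested.

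**Figure D4:**
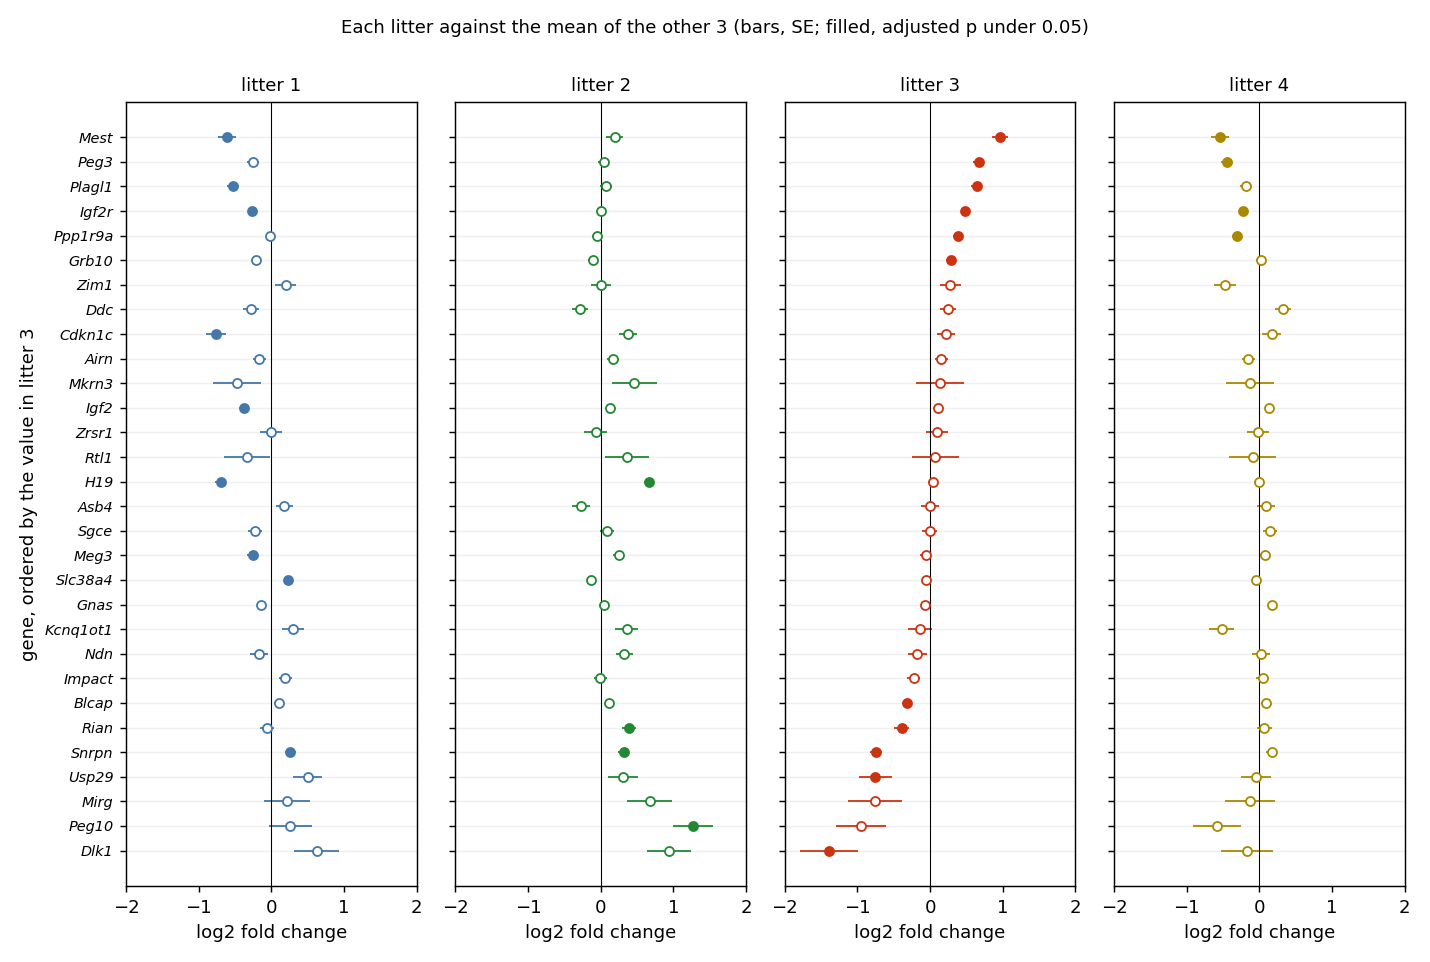
Log2 fold change of each of the 30 tested members in each litter against the mean of the other 3 (points; bars, SE; filled points, edgeR adjusted p under 0.05), ordered by the value in litter 3. The 4 panels share libraries and are not independent; litter 3 runs from -1.39 for Dlk1 to 0.96 for Mest.

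In litter 2, 4 members were higher and 0 lower, where 3.3% of tested genes were higher and 0.879% lower. H19 was higher by 0.66 (SE 0.07, edgeR adjusted p = 4.02e-04), and both of its libraries lay above the other 6. Peg10, a retrotransposon-derived gene needed in the placenta, had 1.24, 2.50, 1.08 and 1.12 CPM in males and 1.89, 2.83, 0.48 and 0.92 CPM in females. Litter 2 was highest (1.27, SE 0.28, adjusted p = 0.0232), but on 60 and 63 counts, and the adjusted p was 0.124 without its male and 0.28 without its female. Rian (0.38, adjusted p = 0.046) and Snrpn (0.32, 0.0369) were the other 2, and of 15 alternatives 9 and 7 ended these calls. Without the female of litter 2, Snrpn changed by 0.18 (0.542). Without litter 3, Snrpn in litter 2 changed by 0.07 (0.746) and Rian by 0.28 (0.194), while Mest (0.57, 0.0182) and Plagl1 (0.31, 0.0262) were called there and 271 of 13899 tested genes were. An unadjusted p-value under 0.05 was found in litter 2 for 13 members and for 2466 of 13771 tested genes. All 8 endothelial markers were also higher in litter 2, with summed levels of 81.4 to 148 CPM against 16 to 61.9 CPM in the other litters, and 6 of 8 fibroblast and 4 of 8 mural markers were higher. The part of these cells in the 4 members was not tested.

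In litter 4, 4 members were lower and 0 higher, where 5.8% of tested genes were lower and 4.71% higher. These were Mest (-0.54, SE 0.12), Peg3 (-0.45, SE 0.08), Ppp1r9a (-0.31, SE 0.07) and Igf2r (-0.22, SE 0.06), with edgeR adjusted p-values of 0.0182, 0.00908, 0.016 and 0.0282. All 4 were among the 6 members higher in litter 3, which is part of the mean they were set against. Without litter 3 none of the 4 remained past the threshold, with log2 fold changes of -0.25, -0.25, -0.20 and -0.07 and adjusted p-values of 0.163, 0.0656, 0.0844 and 0.486. In their place 3 other members were called in that fit, Ddc higher by 0.47 (0.00994) and Peg10 and Kcnq1ot1 lower by -1.01 (0.0385) and -0.63 (0.0303), while 1984 of 13899 tested genes were. Leaving out the male of litter 4 gave log2 fold changes of -0.70, -0.42, -0.20 and -0.22 and adjusted p-values of 0.0509, 0.0873, 0.199 and 0.127. Leaving out its female kept Ppp1r9a alone past the threshold, with -0.38 (0.219) for Mest, -0.47 (0.0637) for Peg3 and -0.22 (0.112) for Igf2r. In litter 4, 6 of 8 fibroblast markers were higher, with summed levels of 108 to 227 CPM. Of 8 cardiomyocyte markers 2 were higher and 2 lower, and of 8 mural markers 2 were higher and 1 lower. Their part in the 4 members was not tested.

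Ddc was called among the litters together (edgeR adjusted p = 0.0254) but in no single litter. With no filter on low counts it was called in all 4, lower in litters 1 and 2 and higher in litters 3 and 4, and it was also called in single litters with some libraries left out. It had 212, 186, 316 and 326 CPM in males and 245, 272, 284 and 299 CPM in females, so that litters 1 and 2 lay below litters 3 and 4. The call ended without the male of litter 1 (0.0699) and with DESeq2 (0.16). Total counts of Ddc do not separate its imprinted heart transcript from others.

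The other 12 tested members passed in none of the litter comparisons above, though some did under an alternative setting. Gnas had 1077 to 1316 CPM with a range over litters of 0.24 on the log2 scale (edgeR adjusted p = 0.0543), and it was called by DESeq2 (0.0411) and with no filter (0.0211). Airn had 52.9 to 70.6 CPM and Zim1, a zinc finger gene beside Peg3, 5.96 to 10.2 CPM. Airn was called with no filter on low counts (0.0205), without the female of litter 2 (0.0194) and without the male of litter 3 (0.0377). Zim1 was called with no filter (0.0143) and when the male (0.0329) or the female (0.0364) of litter 2 was left out. Kcnq1ot1, the RNA that silences the Cdkn1c domain, had 3.32 to 7.03 CPM (0.0642) and was called with library size alone (0.0413), with no filter (0.0123) and without the female of litter 2 (0.0374). Ndn, which encodes a growth-restraining protein of the central chromosome 7 cluster, had 6.90 to 9.98 CPM, and Impact, a regulator of translation under amino acid shortage, 18.2 to 25.2 CPM. Sgce, a sarcoglycan gene, had 13.8 to 19.2 CPM, Asb4 11.8 to 19 CPM and Zrsr1 6.25 to 9.50 CPM, the last with a range over litters of 0.13 (adjusted p = 0.942). Mirg, Rtl1 and Mkrn3 had 5 to 33, 18 to 70 and 15 to 49 counts per library, which left standard errors of 0.30 to 0.37 on the log2 scale in the litter comparisons. At this depth a difference of that size was not detectable for them.

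Below the filter lay 8 members. Dio3, the deiodinase at the end of the chromosome 12 cluster, had 0 counts in every library. Nnat had 3 to 12 counts, Nap1l5 1 to 11, Peg12 0 to 8, Slc22a18 and Magel2 0 to 4, and Ascl2 and Phlda2 0 to 3 counts per library. The last 2 act mainly in the placenta. No values of a comparison are given for these 8 genes. Dio3 entered no fit, and the others entered the fit with no filter.

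No member passed the threshold between the sexes. In edgeR's test, 0 of 30 members passed, where 0.0436% of tested genes did, 0 had an unadjusted p-value under 0.05 against 306 of 13771 tested genes, and DESeq2 gave 0 members and 9 genes in all. Log2 fold changes, male minus female, ran from -0.24 for H19 to 0.61 for Mirg, with a median of 0.00, and 15 of 30 were above 0. The SE of these values ran from 0.09 for Slc38a4 to 0.48 for Peg10. The smallest sex difference that could be detected for each member was not tested. With litter as a replicate block, 0 members and 29 of 13771 tested genes passed, and an unadjusted p-value under 0.05 was found for 2 members and 1592 tested genes. H19 was lower in males in each of the 4 litters, by -0.26 in that fit (SE 0.06, edgeR adjusted p = 0.197), and Slc38a4 was higher in the male of all 4 by 0.17 (SE 0.05, adjusted p = 0.28). Usp29, Mirg and Mkrn3 were also higher in the male of all 4, by 0.36, 0.62 and 0.54 in that fit. The share of all tested genes with the same direction in all 4 litters was not computed.

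Co-variation was examined over the libraries for neighbours within a cluster and for Plagl1 with H19, Igf2, Cdkn1c and Dlk1. Of 16 listed pairs 13 had both genes tested. Correlations of log2 CPM were tested by exact permutation over the pairings of 8 libraries, two-sided, and adjusted over the 13. Mates of a litter are not independent, so these p-values can be too small. No pair passed, and 1 had an unadjusted p-value under 0.05.

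H19 and Igf2 had the largest coefficient, Pearson's r = 0.854 (exact permutation p = 0.00434, adjusted 0.0564) and Spearman's rho = 0.81 (exact permutation p = 0.0218, adjusted 0.283). The coefficient was 0.679 without the 2 libraries farthest from the H19 median, 0.884 without litter 3 and 0.37 without litter 1, a setting chosen after the data were seen. The relation thus rests on litter 1, since Igf2 varied little in the other 6 libraries while H19 did vary, and the ratio of H19 to Igf2 CPM ran from 0.337 in the male of litter 1 to 0.615 in the female of litter 2.

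Plagl1 had r = 0.463 with H19, 0.63 with Igf2 and 0.67 with Cdkn1c, with exact permutation p-values of 0.249, 0.0947 and 0.0681 (adjusted 0.356, 0.205 and 0.177) and rho of 0.548, 0.405 and 0.619 (exact permutation p-values of 0.171, 0.327 and 0.115). Litter 3, where Plagl1 was highest and the other 3 were not, held the farthest libraries. Without it the coefficients were 0.922, 0.825 and 0.909, and without litter 1 they were -0.193, -0.384 and 0.0797. Plagl1 and Dlk1 had r = -0.68 (exact permutation p = 0.0634, adjusted 0.177), and 0.191 without litter 3.

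Igf2r and Airn, which overlap on opposite strands, had r = 0.665 (exact permutation p = 0.0504, adjusted 0.177), 0.918 without litter 3 and 0.569 without litter 1, and their CPM ratio was 12.6 to 18.8. Their annotated exons do not overlap, but whether reads were counted by strand is not given in the sources used here. Whether unspliced Igf2r reads were counted for Airn was not tested. Grb10 and Ddc, neighbours on chromosome 11, had r = 0.669 (exact permutation p = 0.0657, adjusted 0.177) and 0.68 without litter 3. Meg3 and Rian had r = 0.555 (exact permutation p = 0.155, adjusted 0.289) and 0.697 without litter 3. Peg3 and Usp29 had r = -0.482 (exact permutation p = 0.224, adjusted 0.356), which became 0.571 without litter 3. The 4 remaining pairs, Rian with Mirg, Dlk1 with Meg3, Peg10 with Sgce and Cdkn1c with Kcnq1ot1, had coefficients of 0.44, 0.173, -0.191 and -0.263 and adjusted exact permutation p-values of 0.356, 0.676, 0.676 and 0.63. Rian with Mirg had -0.0511 without litter 3, and without litter 1 Dlk1 with Meg3 had 0.706 and Cdkn1c with Kcnq1ot1 0.439. Between neighbours in a cluster, coefficients thus ran from -0.482 to 0.854 in these libraries.

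**Figure D5:**
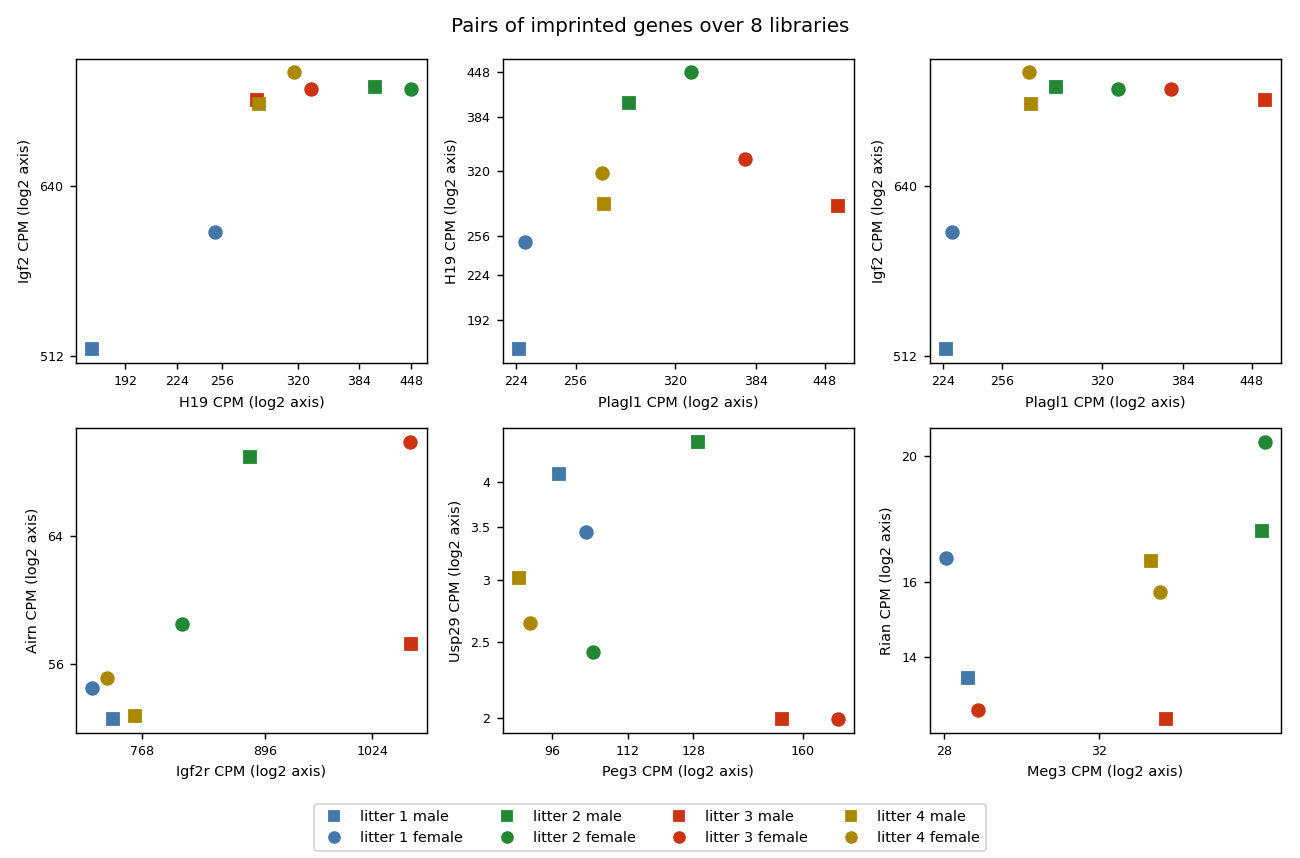
CPM of 6 pairs of imprinted genes in the 8 libraries (log2 axes; colour, litter; squares, males; circles, females). For H19 and Igf2 the 2 libraries of litter 1 set the slope, and for Plagl1 with H19 and Peg3 with Usp29 the 2 libraries of litter 3 lie off the trend of the other 6.

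Partners of the IGF pathway were read from a list of 13 genes, all tested, of which 8 were called among the litters (32.1% of all tested genes) and, in litter 3, 4 were higher (13.6%) and 4 lower (14.8%). In litter 3, where Igf2r was higher and Igf2 did not pass (0.12, SE 0.06, edgeR adjusted p = 0.172), Igf1r, the receptor that signals for both IGFs, was higher by 0.50 (SE 0.09, adjusted p = 0.0024), and Igf1 was lower by -0.70 (SE 0.10, 4.24e-04). In litter 1, 1 partner was higher (7.86% of all tested genes) and 2 were lower (5.41%). The higher one was Igf1, by 0.49 (SE 0.09, 0.00474), while Igf2 was lower. All 6 proliferation and 3 of 8 fibroblast markers were also higher in litter 1, and their part was not tested. The binding proteins Igfbp3, Igfbp4 and Igfbp7 were lower in litter 3 by -1.65, -0.74 and -1.71. Litter 2 is part of the mean that litter 3 was set against. There 4 of the 13 partners were higher and 0 lower, where 3.3% and 0.879% of tested genes were. In litter 3, 6 of 8 fibroblast, 5 of 8 mural and 5 of 8 endothelial markers were lower as well, and their part in the values of that litter was not tested. The ratio of Igf2 to Igf2r CPM was 0.667 and 0.677 in the libraries of litter 3 and 0.697 to 1.01 in the other 6.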

How the data were processed

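RNA of cardiomyocytes was sequenced in 8 libraries, per the labels' protocols from 1 µg of total RNA with a stranded TruSeq total RNA kit, as single reads of 100 bases aiming at 20 M reads; the labels also give the molecule as polyA RNA, and the conflict was not resolved. The authors deposited raw read counts per gene symbol, not normalized. Per the submitters' processing notes, STAR 2.7.3a and mm10 were used; the counter, its annotation and its strand setting are not given in the sources used here. Positions and exon lengths come from GENCODE M21 on GRCm38, sequences from RefSeq on GRCm38.p6.

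Counts were analysed in R 4.3.3 with edgeR 4.0.16 (filterByExpr on sex, 13771 genes, TMM). The sexes were compared without a litter term (6 residual degrees of freedom), the litters with sex in the model (3), by quasi-likelihood F tests adjusted over all genes at 0.05. Log2 CPM used a prior count of 2. Alternatives were other scalings, filters, thinning, DESeq2 1.42.0, leaving out libraries or litter 3, and litter as a block. The members, lists and tests were chosen with earlier results of these data known. Members called in any comparison, and 12 fixed ones, are given per library.

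The labels state that a sample's number is its litter, so numbers pair the samples; male and female of a litter correlated at 0.506, 0.503, 0.696 and 0.367 after removal of sex means, pairs from different litters at -0.482 to 0.27. No library repeated another of its sex (chi-square per degree of freedom at least 10.4). On simulated counts with 200 changed genes at 1 on the log2 scale, the tests of sex (13661 genes), litters and litter 3 (13669 genes each) recovered 99.5, 95 and 98%, and 4.3, 3.6 and 3% of calls were false. Whether recovery would be the same at the spread of the real libraries was not tested. The 2 libraries of a litter share a dam, and whether a library holds 1 heart or pooled hearts was not established.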

Additional observations from a re-analysis of the deposited data

Results flagged for a closer look

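For each tested member, males and females were taken as 2 groups of 4 libraries, and the extreme library of a group was set against the rest. A library stood far apart in 5 of 60 such groups, where chance gives about 3. Igf2 had 516.5 CPM in the male of litter 1 where the other males had 713.4 to 729.1 CPM. Its level in the female of litter 1 was 602.7 CPM, where the other females had 727.2 to 743.8 CPM, so both mates of litter 1 stood apart. Peg3 had 171.8 CPM in the female of litter 3 while the other 3 females had 91.85 to 104.5 CPM. Peg10 had 2.495 CPM in the male of litter 2 against 1.085 to 1.245 CPM in the other males, from few counts. Slc38a4 had 156.2 CPM in the male of litter 1 against 133.6 to 136.8 CPM. The causes were not tested.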

How the results depend on the processing

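No call reversed its direction under any alternative run. For the sexes, the paired fit with litter as a replicate block gave 0 members, as did every other alternative, though 29 genes in all. Calls over all genes moved too and are given beside the members. The count of members among the litters was 14 to 22 in the other full-data alternatives (3244 to 5723 genes), 8 without both libraries of litter 3 (1898 genes) and 9 to 16 with 1 library left out (2964 to 4097 genes). With 1 library left out, litter 1 gave 1 to 10 members (359 to 1869 genes), litter 3 gave 7 to 12 (1704 to 3791 genes) and litter 4 gave 0 to 7 (322 to 1302 genes). With no filter on low counts litter 4 gave 8 (2072 of 24853 genes). Litter 2 gave 2 members with a mean of at least 50 counts (345 genes), 2 after thinning to the smallest total (430 genes), 1 with DESeq2 (432 genes) and 2 to 5 with 1 library left out (153 to 752 genes). For pairs of genes, 0 passed as reported and 1, H19 with Igf2, passed with library size alone, with a mean of at least 50 counts and after thinning, and 0 to 1 with 1 library left out. The causes were not tested. A lone library left in a litter was assumed to vary like the others. Member calls that held under every alternative run were H19 among litters and in litters 1 and 2, Mest and Plagl1 among litters and in litter 3, and Igf2r, Peg3, Ppp1r9a and Snrpn in litter 3. Depth limits Dlk1, Mirg and Peg10 most, with as few as 5 to 7 counts in a library.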

Other observations

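Imprinted genes outside the 38 members were read from a second list of 41, of which 28 were tested and 7 were called among the litters, where 32.1% of all tested genes were. In litter 3, 3 were higher and 3 lower, where 13.6% and 14.8% of tested genes were. Phactr2, a neighbour of Plagl1 on chromosome 10, was higher in litter 3 by 0.43 (SE 0.05, edgeR adjusted p = 1.33e-04) and lower in litter 1 by -0.34 (SE 0.05, 0.0021), the same directions as Plagl1. Zdbf2 (0.53) and Gab1 (0.33) were also higher in litter 3, while Commd1 (-0.34), Nap1l4 (-0.22) and Tnfrsf23 (-1.34) were lower. Phactr2 and Kcnq1 (-0.24) were the 2 lower in litter 1, with 0 higher, where 5.41% of tested genes were lower and 7.86% higher. Kcnq1 (0.31) and Commd1 (0.28) were higher in litter 4 and Zdbf2 (-0.44) was lower, where 4.71% were higher and 5.8% lower.

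Of 9 genes whose products keep imprints, 8 were tested and 4 were called among the litters, where 32.1% of all tested genes were. Dnmt1, the maintenance DNA methyltransferase, and Uhrf1, which brings it to replicating DNA, were lower in litter 3 by -0.75 (SE 0.11, edgeR adjusted p = 3.8e-04) and -1.12 (SE 0.17, 5.57e-04), and higher in litter 1 by 0.47 and 0.81. The 6 proliferation markers were all higher in litter 1 and all lower in litter 3, and their part in the values of these 2 genes was not tested. Smchd1 was lower in litter 3 by -0.25 and higher in litter 1 by 0.35. Zfp445, a zinc finger factor that binds imprinted control regions, was lower in litter 4 by -0.40 (adjusted p = 0.00843). Zfp57 had mean levels of 1.00 to 2.52 CPM over the litters and was not called, nor were Trim28, Ctcf and Setdb1.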
